A study of Homo sapiens with 14 samples.

Results

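The 6 transcription factor genes GATA2, GATA3, GATA4, GATA6, SOX17 and SOX7 were followed through the differentiation of human embryonic stem cells (hESC) towards endoderm and foregut. They were chosen by name, as GATA factors and SOX factors that act in endoderm, and are 6 of the 63677 gene IDs of the bulk tables, of which 55665 were given a symbol. The bulk data were 12 RNA-seq libraries of H9, an established human ESC line. They comprised 2 libraries of undifferentiated hESC (hESC), 3 of endoderm expressing dCAS9-KRAB without sgRNA (endoderm control), 3 of endoderm expressing dCAS9-KRAB with sgRNA (endoderm CRISPRi), 2 titled foregut control and 2 titled foregut CRISPRi. Endoderm was made with 100 ng/ml of Activin A over 3 days, with the GSK-3 inhibitor CHIR-99021 at 5 μM and then 0.5 μM, and foregut by 3 further days of a pancreatic protocol. dCAS9-KRAB is a nuclease-dead Cas9 joined to a repressor domain, delivered by lentivirus under puromycin selection, and the study's sgRNA was designed on the LTR5B consensus, a long terminal repeat of the endogenous retrovirus HERVK. A single preparation of gastruloids, embryoid bodies of 800 H9 cells per well pulsed with 3 μM CHIR-99021 and harvested at 72 h, gave nuclei with RNA counts and a list of accessible chromatin peaks.

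GATA factors are zinc finger proteins that bind the sequence they are named after. GATA4 and GATA6 act early in endoderm and in heart, where they can open closed chromatin, and their loss impairs formation of these tissues. GATA2 and GATA3 are better known from blood, trophoblast and amnion. SOX17 and SOX7 belong to the SOXF group of HMG box proteins, together with SOX18. SOX17 is a defining factor of definitive endoderm and also of human primordial germ cells, and SOX7 is known from extraembryonic endoderm and from endothelium.

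The 250 bases before the start are shown for GATA6, GATA3 and GATA2, because the first pair had an accessible peak over the start in gastruloids and GATA2 had none. The sequences are from RefSeq on GRCh38.p14, 5′ to 3′ on the strand of the gene, at chr18:22169339-22169588 (+), chr10:8045083-8045332 (+) and chr3:128493202-128493451 (−). Capitals mark a CCAAT box, searched on both strands.
GATA6: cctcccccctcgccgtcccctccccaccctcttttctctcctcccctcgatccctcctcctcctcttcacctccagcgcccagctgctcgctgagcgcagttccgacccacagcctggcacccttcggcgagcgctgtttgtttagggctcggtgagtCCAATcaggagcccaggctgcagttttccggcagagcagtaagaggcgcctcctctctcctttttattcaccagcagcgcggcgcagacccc
GATA3: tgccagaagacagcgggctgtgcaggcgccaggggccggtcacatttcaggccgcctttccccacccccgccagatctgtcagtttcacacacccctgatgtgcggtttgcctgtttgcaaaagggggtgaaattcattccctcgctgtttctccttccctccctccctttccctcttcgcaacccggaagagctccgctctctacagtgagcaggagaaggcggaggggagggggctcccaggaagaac
GATA2: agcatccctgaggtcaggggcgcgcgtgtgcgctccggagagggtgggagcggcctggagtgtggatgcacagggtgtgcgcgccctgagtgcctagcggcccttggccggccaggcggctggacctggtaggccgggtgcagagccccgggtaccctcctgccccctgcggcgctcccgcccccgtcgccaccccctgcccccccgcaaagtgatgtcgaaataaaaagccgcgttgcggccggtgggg
The GATA6 window held 1 CCAAT match, a motif found in 32.0% of 35116 such windows, and the other two held none. None of the 3 windows held a GATA motif (AGATAA with A or T first and A or G last, both strands), which 22.3% of windows held, or the SOX core AACAAT, which 8.98% held. Their GC content was 64.4% for GATA6, 60.8% for GATA3 and 72.8% for GATA2, against a median of 58.0% over all windows.

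The genes lie on 4 chromosomes (GRCh37): GATA2 on chromosome 3 at 128198270-128212044 (minus strand), GATA3 on chromosome 10 at 8087341-8117161, GATA6 on chromosome 18 at 19749550-19782491, and on chromosome 8 GATA4 at 11534468-11617511, SOX17 at 55370495-55373452 and SOX7 at 10581278-10588021 (minus strand).

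Reads assigned to genes ranged from 11583063 to 37152434 per library, and log2 levels of libraries of a group correlated at 0.931 to 0.993. The status label of the 4 foregut libraries went against their titles, since it called the foregut controls hESC and the foregut CRISPRi libraries endoderm without sgRNA. In the foregut controls NANOG, a pluripotency factor, was at 0 CPM and POU5F1 at 2.53 to 4.34 CPM, while TTR, a hepatic and endodermal transport protein, was at 1540 to 1954 CPM, so the titles were used. The summed level of LTR5B integrants, the targeted family, was 5.36 ± 0.373 CPM in endoderm control and 2.58 ± 0.815 CPM in endoderm CRISPRi (SD, n = 3), and 11.0 ± 3.04 against 5.17 ± 1.82 CPM in foregut (SD, n = 2), with no overlap in either pair. That of LTR5_Hs, the related and more abundant subfamily in endoderm, was 18.6 ± 0.442 CPM in endoderm control and 12.4 ± 1.14 CPM in endoderm CRISPRi (SD, n = 3), while in foregut 9.64 and 8.34 CPM in control overlapped with 5.11 and 9.87 CPM in CRISPRi. In endoderm control EOMES, GSC, MIXL1 and FOXA2 were all present, with EOMES at 599 ± 41.2 CPM (SD, n = 3). POU5F1 was at 652 to 826 CPM there, above its 291 and 575 CPM in hESC. The foregut libraries held far fewer genes with few reads: 757 to 1390 genes had 1 to 10 reads there, against 5633 to 6426 in the other libraries. Of genes at 1 to 2 CPM in the rest of the group, 9.02% to 42.9% had 0 reads in a foregut library and at most 0.464% in any other, so low foregut values, among them those of GATA2 and SOX7, are less certain. Mitochondrial genes took 8.30% to 14.4% of reads in endoderm, 16.9% to 25.5% in hESC and 17.6% to 34.7% in foregut, and the second foregut CRISPRi library had 14604 genes with 3 reads or more, against 16513 to 17886 in the others. These differences cannot be told apart from the stage.

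GATA6, GATA4 and SOX17 had 0 reads in either hESC library and were among the abundant regulators of endoderm. GATA6 was at 432, 325 and 338 CPM (counts scaled to library size by TMM) in the 3 endoderm controls. GATA4 was at 185, 261 and 270 CPM. SOX17 was at 284, 207 and 231 CPM. With a floor of 3 counts per hESC library, the endoderm control level was at least 2810-fold higher for GATA6, at least 1840-fold for GATA4 and at least 1850-fold for SOX17. Endoderm control and hESC did not overlap for any of the 6 genes. Here and below, the share of all genes without overlap was not counted.

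GATA3, GATA2 and SOX7 were much lower and had some reads in hESC. GATA3 went from 0.173 and 0.288 CPM in hESC to 2.74, 5.94 and 6.75 CPM in endoderm control (log2 fold change 4.47 with an SE of 0.52, edgeR adjusted p = 6.28e-06). GATA2 went from 0.0432 and 0.370 CPM to 1.30, 0.783 and 0.938 CPM (log2 fold change 2.27 with an SE of 0.69, edgeR adjusted p = 0.0158). SOX7 went from 0.303 and 0.329 CPM to 1.64, 0.553 and 0.688 CPM, with 1 endoderm library well above the other two (SE 0.62, edgeR adjusted p = 0.0487). All 6 genes were called higher, where called means an adjusted p under 0.05 over all genes tested and a fold above 2, and 26% of the 20818 genes tested were called, with 14.2% of the genes tested called higher. The median log2 fold change was 9.89 over the 6 genes and 0.05 over all genes tested. The SOX7 call was lost in most other settings, with adjusted p of 0.0526 to 0.153 under another tool, filter or fit, and without either hESC library or the first endoderm control (0.197 to 0.273). The GATA2 call held in 12 of 14 alternatives. Among those that lost it was the fit without the first hESC library (log2 fold change 1.46), which held 1 of the 10 GATA2 reads of the group. Markers of heart and lateral mesoderm, where GATA4 and GATA6 also act, moved with the same step: of 10 tested genes of that list 5 were called higher and 1 lower, and its sum was 4.02 to 5.80 CPM in hESC and 73.3 to 212 CPM in endoderm control. PDGFRA, a growth factor receptor, made up most of it, at 106 ± 67.4 CPM (SD, n = 3), and HAND1, a mesoderm and amnion factor at 0 in hESC with TBX20, was at 16.8 ± 7.25 CPM (SD, n = 3). Their part in the GATA values was not tested. The labels do not say whether libraries of a group came from separate cultures, so p-values measure the spread between these libraries, and in bulk RNA fewer cells expressing a gene and less RNA per cell cannot be told apart.

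**Figure D1:**
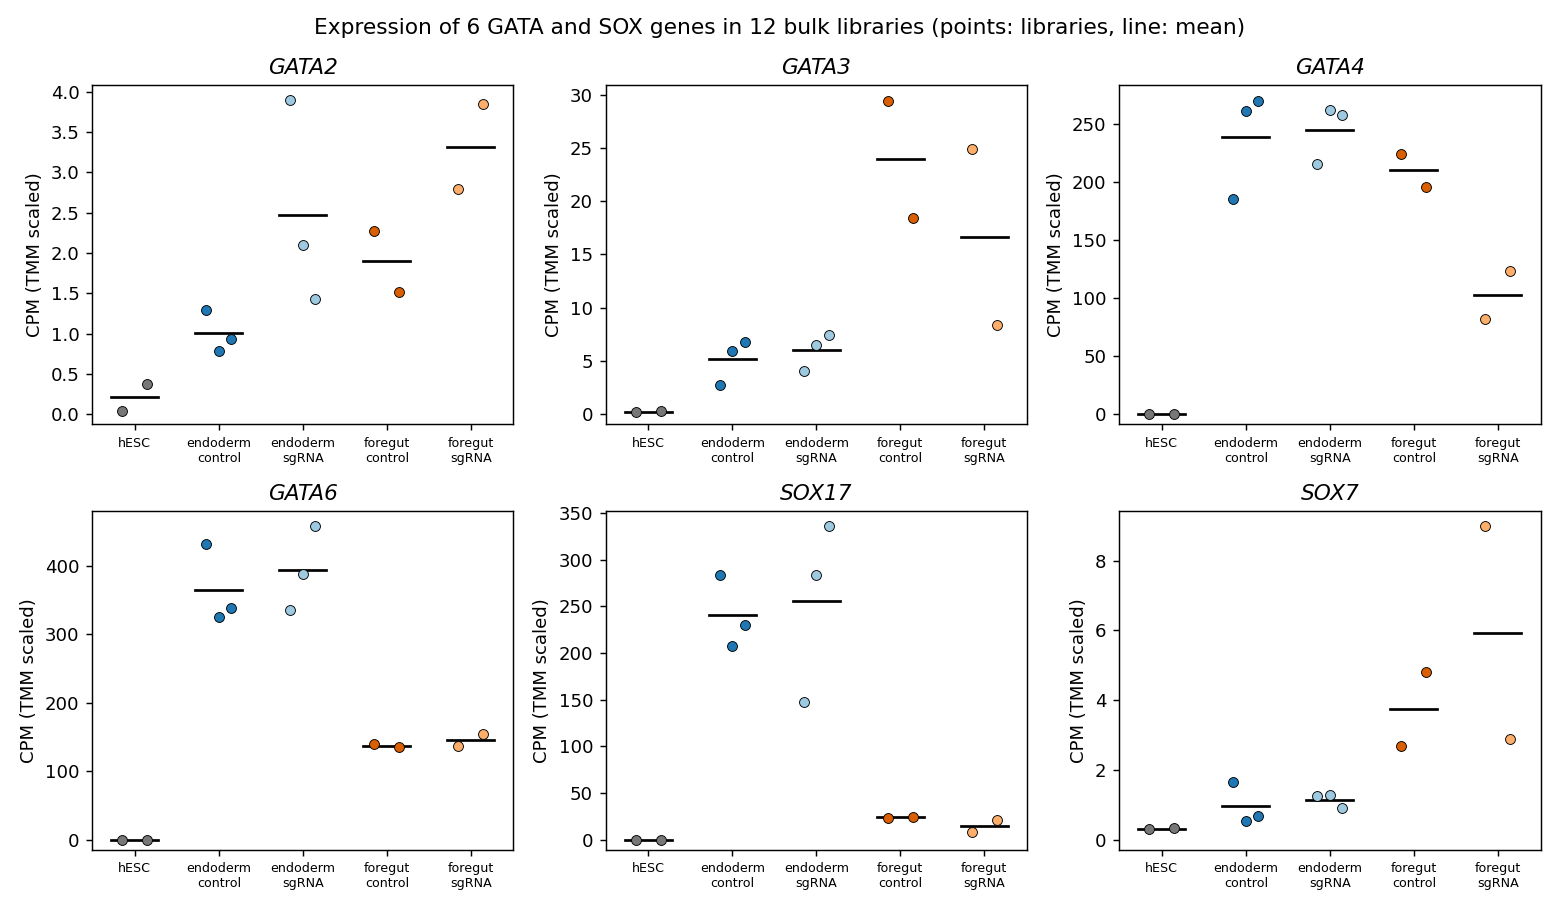
Expression of the 6 genes in each of the 12 bulk libraries, in CPM scaled by TMM on a linear axis of its own for each gene; points are libraries and lines group means. GATA4, GATA6 and SOX17 sit at 0 in hESC and above 145 CPM in every endoderm library, while GATA2 and SOX7 stay under 10 CPM throughout.

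Per kilobase of exon, so that genes can be compared, SOX17 was at 103 and GATA6 at 96.0 CPM per kb in endoderm control, a difference smaller than their spread, and GATA4 was at 53.8. GATA3 was at 1.51, SOX7 at 0.299 and GATA2 at 0.205 CPM per kb. Among the 6 GATA genes, GATA6 thus made up 63.2% and GATA4 35.4% of the summed level per length in endoderm control, and 64.1% and 34.2% in endoderm CRISPRi. In hESC, where all GATA levels were low, GATA5 made up 82.7% of the sum at 0.527 CPM per kb. Among 19 SOX genes SOX17 ranked first in both endoderm groups, followed by SOX4 and SOX12, while SOX7 ranked 13th in endoderm control and 11th in endoderm CRISPRi, and SOX2 ranked first in hESC and in both foregut groups.

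From endoderm to foregut the genes parted. SOX17 fell the most: it was at 23.4 and 24.7 CPM in the foregut controls, 9.99-fold below endoderm control (log2 fold change −3.32, SE 0.24, edgeR adjusted p = 2.12e-05). GATA6 fell to 139 and 135 CPM (log2 fold change −1.41, SE 0.21, adjusted p = 0.000951). Neither gene overlapped between the stages, and both foregut controls lay close together. GATA4 was at 224 and 196 CPM, within the range of the endoderm controls, and was not called (log2 fold change −0.19, 95% interval −0.62 to 0.25, adjusted p = 0.52). GATA4 thus made up 50.5% of the summed GATA level per length in foregut control and GATA6 38.5%, the reverse of their order in endoderm.

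GATA3 and SOX7 were higher in foregut control. GATA3 was at 29.5 and 18.4 CPM, or 2.22 above endoderm control on the log2 scale (SE 0.40, edgeR adjusted p = 0.00282). SOX7 was at 2.70 and 4.82 CPM, or 1.96 above it (SE 0.58, adjusted p = 0.0297), and lost its call without endoderm control 2 or 3 or foregut control 2 (adjusted p 0.072 to 0.095). GATA2, at 2.27 and 1.51 CPM, did not overlap with endoderm control and was not called (log2 fold change 0.91, SE 0.56, adjusted p = 0.227). In all 4 of the 6 genes were called, 2 in each direction, where 29% of 21466 genes tested were called, 14.1% higher and 15% lower.

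The CRISPRi libraries gave their own version of the same step, with 26.3% of 20735 genes called, 12.9% higher and 13.4% lower. GATA6 was lower at 136 and 155 CPM in foregut CRISPRi (log2 fold change −1.40, SE 0.23, edgeR adjusted p = 0.00354). SOX17 was lower at 8.27 and 21.1 CPM (−4.09, SE 0.54, adjusted p = 0.00132), with the pair differing by more than the foregut controls did. GATA4 was lower too, at 82.1 and 123 CPM (−1.22, SE 0.25, adjusted p = 0.00923), and without the first foregut CRISPRi library its change was under the required fold at −0.96 (adjusted p = 0.0251). SOX7 was higher at 8.99 and 2.88 CPM (2.38, SE 0.64, adjusted p = 0.0263), a call lost in all but 1 of the fits that left out a library (adjusted p up to 0.107). GATA3, at 24.9 and 8.39 CPM, missed the threshold (1.51, SE 0.50, adjusted p = 0.0555) and was called without the second foregut CRISPRi library (2.02, adjusted p = 0.00222). GATA2 was at 2.79 and 3.84 CPM (0.45, adjusted p = 0.599). In foregut CRISPRi GATA6 made up 56.5% and GATA4 34.1% of the GATA sum per length. Both steps share their libraries with the CRISPRi comparisons that follow.

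Markers of other cell types moved with the step to foregut. Of 11 tested genes of an endothelial and blood list, which SOX7, SOX17 and GATA2 are also known from, 6 were called higher and 1 lower in foregut control, and 7 and 1 in foregut CRISPRi. Of all genes tested, 29% and 26.3% were called in these comparisons, in either direction. CDH5, an endothelial cadherin, rose from 0.0946 ± 0.0922 CPM in endoderm control (SD, n = 3) to 30.8 ± 1.28 CPM in foregut control (SD, n = 2, edgeR adjusted p = 1.16e-05). TIE1, an endothelial receptor, was at 0.778 ± 0.117 and 30.1 ± 8.26 CPM. KDR, the list's most abundant gene in endoderm control, went the other way, from a mean of 98.0 to 28.7 CPM. RUNX1 went from 8.39 to 2.81 CPM. The summed level of the list's 12 genes with an ID was 80.7 to 173 CPM in endoderm control, 60.3 to 127 in endoderm CRISPRi, 109 to 148 in foregut control and 185 to 247 in foregut CRISPRi, with GFI1B at 0 in all 4 groups. Of 10 tested genes of an amnion and trophoblast list, known territory of GATA2 and GATA3, 4 were higher and 2 lower in foregut control, and the sum went from 28.8 to 48.3 CPM up to 73.6 to 118 CPM, with ELF5, KRT23 and TFAP2B at 0. Its most abundant member there, KRT7, a simple epithelial keratin, was at 37.5 and 89.2 CPM in the foregut controls. Of 13 genes of an extraembryonic endoderm list 7 were higher and 3 lower, at sums of 1100 to 1377 and 2944 to 3378 CPM, with AFP and TTR at 0 in endoderm control and CUBN at 0 in foregut control. TTR, at a mean of 1747 CPM, and APOA1, at 634 CPM, made up most of the foregut control sum. TTR served above as an endodermal marker, so this list cannot tell extraembryonic from foregut endoderm here. Whether other cell types had a part in the GATA3 and SOX7 values was not tested.

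With the LTR5 sgRNA, none of the 6 genes was called in endoderm. By edgeR 7 of 20407 genes (0.0343%) were called at all, and 1057 had an unadjusted p under 0.05. GATA4 was at 215, 262 and 258 CPM in endoderm CRISPRi, with a log2 fold change of 0.06 against control and an interval of −0.32 to 0.45. GATA6 was at 335, 388 and 457 CPM (0.13, −0.25 to 0.51), and SOX17 at 147, 283 and 336 CPM (0.12, −0.41 to 0.64). The groups overlapped for all 3 genes, and the first endoderm CRISPRi library was the lowest in each. GATA3 at 4.02, 6.50 and 7.48 CPM and SOX7 at 1.25, 1.29 and 0.924 CPM overlapped with their controls too. GATA2 was at 3.89, 2.10 and 1.43 CPM against 0.783 to 1.30 in control, without overlap. It was 1.32 higher on the log2 scale (interval 0.50 to 2.13, edgeR adjusted p = 0.595). The share of all genes without overlap was not counted. The summed amnion and trophoblast list did not overlap either, at 28.8 to 48.3 CPM in control and 56.9 to 83.7 CPM in CRISPRi, with ELF5, KRT23, TFAP2B and TP63 at 0 in both groups and 0 of 8 tested genes called. Its HAND1, also on the heart and lateral mesoderm list, made up most of the rise, at 16.8 ± 7.25 and 45.3 ± 8.22 CPM (SD, n = 3, edgeR adjusted p = 0.199). Only 3 of its genes had a mean over 1 CPM in either group. The others were TFAP2C, at means of 14.8 and 14.2 CPM, and ISL1, at 7.57 and 7.40 CPM, which did not rise. The relation of HAND1 to the GATA2 values was not tested.

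In foregut none of the 6 genes was called either, where edgeR called 33 of 20044 genes (0.165%) and 699 had an unadjusted p under 0.05. GATA4 stood out by size. It was at 224 and 196 CPM in foregut control and at 82.1 and 123 CPM in foregut CRISPRi, with no overlap, and a log2 ratio of −1.04 (SE 0.32, interval −1.67 to −0.41, edgeR adjusted p = 0.358). The fit that left out each library in turn gave −1.36 to −0.77. SOX17, at 8.27 and 21.1 against 23.4 and 24.7 CPM, did not overlap (−0.72, interval −1.58 to 0.15, adjusted p = 1). GATA6 was at 136 and 155 against 139 and 135 CPM (0.08, −0.55 to 0.72). GATA3 (−0.53, −1.38 to 0.32) and SOX7 (0.65, −0.85 to 2.16) overlapped, and GATA2, at 2.79 and 3.84 against 2.27 and 1.51 CPM, did not overlap but had a wide interval (0.80, −1.51 to 3.12).

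The difference of the sgRNA effect between foregut and endoderm was largest for GATA4, at −1.11 on the log2 scale (SE 0.34, edgeR adjusted p = 0.392). For SOX17 it was −0.83 (SE 0.52, adjusted p = 0.74), and for GATA6 −0.06 (interval −0.66 to 0.54). None of the 6 was called, where 44 of 22708 genes (0.194%) were called and 1870 had an unadjusted p under 0.05. In the foregut libraries CDX2, an intestinal and trophoblast factor, differed between the groups beside GATA4, at 18.4 ± 8.59 CPM in control and 2.71 ± 1.48 CPM in CRISPRi (SD, n = 2, edgeR adjusted p = 0.000992). AFP, of yolk sac and fetal liver, was at 4.82 and 187 CPM in the controls and at most 0.0363 CPM in CRISPRi. They were the called genes of the amnion and trophoblast list (1 of 11 tested) and of the extraembryonic endoderm list (1 of 13), and their relation to GATA4 was not tested. None of the 6 genes lay within 100 kb of an LTR5_Hs, LTR5A or LTR5B integrant, measured from the nearer end of the gene, against 2748 of 19475 protein-coding genes (14.1%), and the nearest was an LTR5A 267.6 kb from GATA4 (chr8:11885123-11886152, GRCh37). Of LTR5_Hs and LTR5B alone, the nearest was an LTR5_Hs 425.3 kb from SOX17 (chr8:54944241-54945208), and for GATA4 an LTR5_Hs 4170 kb away.

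**Figure D2:**
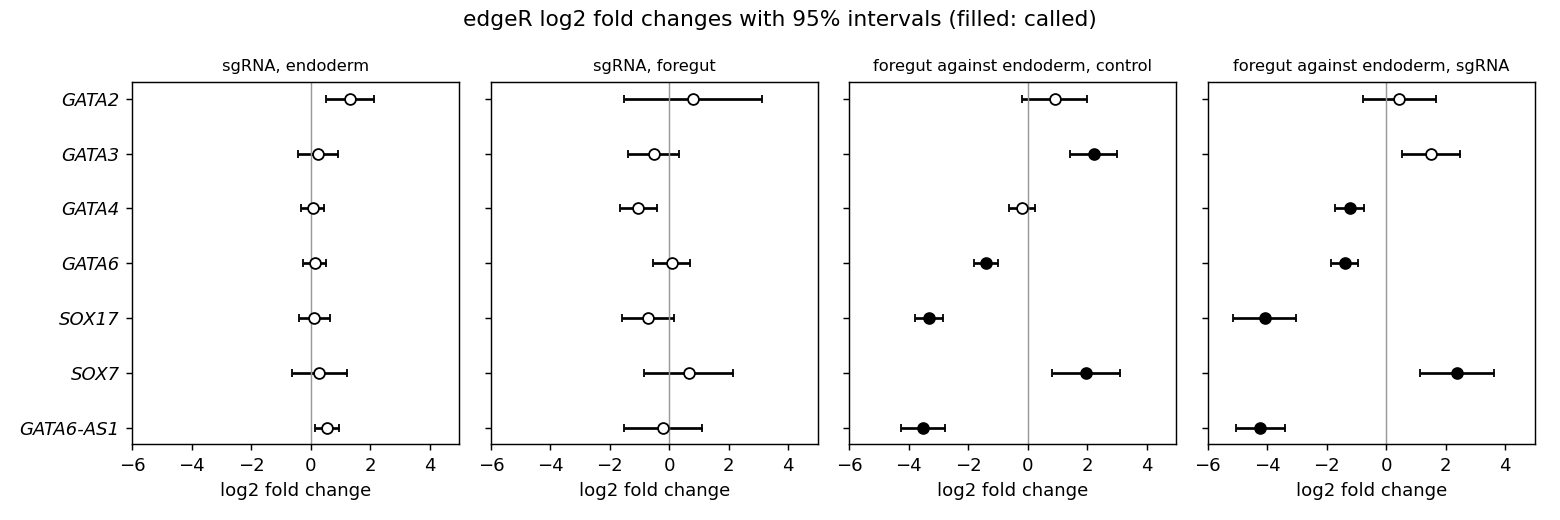
Log2 fold changes of the 6 genes and GATA6-AS1 in 4 comparisons, fitted by edgeR, with 95% intervals as bars and filled points for calls; the grey line marks 0. No gene is filled in the sgRNA panels, GATA6, SOX17 and GATA6-AS1 are filled below 0 in both foregut panels, and GATA4 is filled only in the CRISPRi one.

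GATA6 has an antisense partner, GATA6-AS1, a long noncoding RNA at chr18:19744847-19749839 (GRCh37, minus strand) that overlaps its start. The kit kept strand, but whether the counting used it is not stated in the sources used here, so reads in the shared stretch cannot be told apart. GATA6-AS1 had 2 reads in hESC, both in the first library, and was at 86.9, 64.5 and 76.2 CPM in endoderm control, a ratio of 1790 with a counting interval of 496 to 14800 (edgeR adjusted p = 2.39e-10). The fitted log2 fold change ranged from 9.70 to 13.62 when 1 library was left out. In foregut control it was at 4.12 and 9.13 CPM (log2 fold change −3.51, SE 0.38, edgeR adjusted p = 0.000169), and in foregut CRISPRi at 3.77 and 7.73 CPM, against 140, 90.9 and 98.1 CPM in endoderm CRISPRi (−4.23, SE 0.42, adjusted p = 0.000356).

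Between the stages the antisense RNA had the larger fold change of the pair, a difference that was not tested. There were 20.1, 19.9 and 22.5 GATA6-AS1 reads per 100 GATA6 reads in the endoderm controls, and 2.96 and 6.77 in the foregut controls. In endoderm CRISPRi the ratio was 41.8, 23.4 and 21.4, with the first library apart from the others, and in foregut CRISPRi 2.77 and 5.0. GATA6-AS1 did not overlap between endoderm CRISPRi and control and was not called (log2 fold change 0.55, edgeR adjusted p = 0.761). GATA2-AS1 never had more than 11 reads, with 0 in all 4 foregut libraries, and GATA3-AS1 never more than 2. SOX7 overlaps PINX1, so its low counts carry the same uncertainty.

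**Figure D3:**
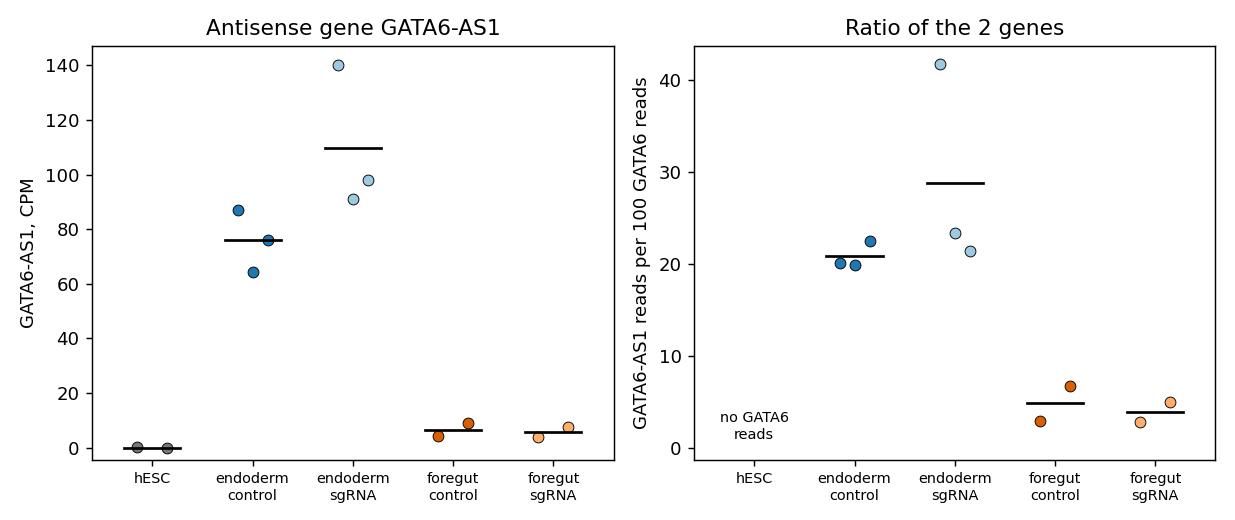
GATA6-AS1 in each bulk library, as CPM scaled by TMM in the left panel and as reads per 100 GATA6 reads in the right panel; points are libraries and lines group means. The ratio is 19.9 to 41.8 in endoderm and 2.77 to 6.77 in foregut, and hESC has none because it had no GATA6 reads.

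Of 6 tested other GATA genes and cofactors, 2 were called higher in endoderm control than in hESC: ZFPM2, the FOG2 cofactor of GATA4 (log2 fold change 6.16), and ZFPM1, the FOG1 cofactor (1.15), beside 26% of all genes tested called in either direction. In foregut control 2 of 7 were higher than in endoderm control, GATA5 (3.24, edgeR adjusted p = 0.000338, from 0.780 to 7.43 CPM) and ZFPM1 (1.40), beside 29% of all genes. In foregut CRISPRi 1 of 6 was called against endoderm CRISPRi, ZFPM2 lower (−3.86, edgeR adjusted p = 0.0451), beside 26.3% of all genes. None of this list was called with the sgRNA in endoderm or foregut, and GATA5 had a log2 fold change of −1.83 in foregut (edgeR adjusted p = 1).

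Of 16 tested other SOX genes, 3 were higher and 7 lower in endoderm control than in hESC, beside 14.2% and 11.8% of all genes tested. SOX2, the pluripotency factor, fell from a mean of 158 CPM to 23.2 CPM, or −2.73 on the log2 scale, and SOX3 (−4.37) and SOX1 (−3.32), of the same neural group, fell with it. SOX18, the remaining SOXF gene, rose (4.32). In foregut control 8 of 16 were higher than in endoderm control and none lower: SOX2 rose again (2.84), as did SOX9 (2.92), a progenitor factor of pancreas and gut, SOX4 (1.74), SOX11 (3.52), SOX21 (2.76), SOX6 (3.58), SOX15 (6.92) and SOX18 (2.59). The SOX18 call rests on 1 library, since the foregut controls were at 0.877 and 10.3 CPM and the endoderm controls at 0.748 to 1.11 CPM. No SOX gene tested other than SOX17 was called lower there. Of all genes tested, 14.1% were called higher and 15% lower in that comparison. The CRISPRi libraries likewise had 8 of 16 higher and none lower, beside 12.9% and 13.4% of all genes tested. SOX2 was at 3.63 there, SOX9 at 3.69 and SOX15 at 6.99.

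Of 14 tested endoderm regulators, 10 were higher and 1 lower in endoderm control than in hESC, beside 14.2% and 11.8% of all genes tested. Among those higher were EOMES (log2 fold change 7.22), MIXL1 (8.84) and GSC (8.21), which act in the primitive streak, and FOXA2 (2.80), the pioneer factor of endoderm. In foregut control 4 were higher and 5 lower than in endoderm control, beside 14.1% and 15% of all genes tested. EOMES (−8.59), MIXL1 (−8.59) and GSC (−7.59) fell together with OTX2 (−4.26) and PRDM1 (−1.70), while FOXA1 (4.99), FOXA2 (1.72) and ONECUT2 (2.38) rose. With the sgRNA, none of these regulators and none of the other SOX genes was called in either stage, nor was the difference between the stages. The list medians for the sgRNA were −0.16 in endoderm and −0.07 in foregut, against −0.02 and −0.06 over all genes tested.

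The genes whose log2 levels followed each factor most closely over the 12 libraries were taken from 10810 or 10811 genes whose mean was 5 CPM or more. For SOX17 they were RNF152 (Pearson r = 0.99), DIO3 (0.989), the enzyme that inactivates thyroid hormone, and CDH2 (0.988), the N-cadherin. DIO3 had no reads in hESC like SOX17, and its mean was 175 CPM in endoderm control and 23.3 CPM in foregut control. For GATA6 they were SLC16A3 (0.989), a lactate transporter, DLC1 (0.988) and ANGPT2 (0.987), an angiopoietin. For GATA4 they were BTG2 (0.987), GATA6 itself (0.986) and NRP1 (0.985), a coreceptor of semaphorins and VEGF. For GATA3 they were F10 (0.96), the coagulation factor, at a mean of 5.42 CPM in endoderm control and 42.0 in foregut control, PKIG (0.958) and JUN (0.957). SOX7 was nearest to CHST12 (0.959), RCN3 (0.958) and RSPH9 (0.952), and GATA2 to a gene known by its ID ENSG00000225200 (0.951), SELENOK (0.948) and ZNF32 (0.935). Between the 6 genes, GATA6 and SOX17 correlated at 0.917 and SOX17 and SOX7 at −0.03. These values are descriptions over 12 libraries in 5 groups that share their depth and stage.

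In gastruloids, peaks of accessible chromatin were listed for the whole preparation, without a value per nucleus. A peak covered the start of 5 of the 6 genes, at chr10:8044779-8045695 for GATA3, chr8:11676685-11677590 for GATA4, chr18:22169120-22170015 for GATA6, chr8:54457785-54458645 for SOX17 and chr8:10730120-10730949 for SOX7 (GRCh38). The GATA6 and GATA3 peaks hold the promoter windows printed above. The nearest peak to the start of GATA2 used here was 2571 bp away. A second RefSeq start of GATA2, at 128488530, had no peak over its promoter window, and a peak lay at chr3:128487593-128488451. By a looser measure, any overlap with the window, 20503 of 35116 promoter windows (58.4%) had a peak, and a gene can have several windows. GATA4 had 33 peaks within 50 kb, 16 of them in the gene, which is also the longest, GATA3 and GATA6 had 15 each, GATA2 and SOX17 14 each, and SOX7 9. By the RefSeq annotation on GRCh38, in which the pair does not overlap as it does in the GRCh37 gene models, GATA6 and GATA6-AS1 start 621 bases apart, and no single peak covered both starts.

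Reads on transposable elements near the genes were counted too. Within 50 kb there were 142 integrants for SOX17 to 292 for GATA4, and outside exons 14 integrants near GATA4 had at least 20 reads over the 12 libraries, 5 near GATA2, 3 near GATA6, 1 each near GATA3 and SOX17 and none near SOX7. Upstream of GATA4, the 2 integrants of this kind were an L1MA3 22.3 kb and a MIRb 15.1 kb before the start. Together they had 19, 15 and 5 reads in endoderm control and 10, 17 and 13 in endoderm CRISPRi, with 0 in hESC and in all 4 foregut libraries. GATA4 itself was at 82.1 CPM or more in foregut, where few low counts were listed in general. An AluSp 2.46 kb before the start of SOX17 had 2 to 7 reads in each endoderm library, 167 and 55 in the foregut controls and 0 in both foregut CRISPRi libraries. An AluSx inside GATA6, 30.2 kb after its start, had 43 and 20 reads in the foregut controls, 129 and 56 in foregut CRISPRi and at most 3 elsewhere. These 4 were chosen after their values were seen.

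Of the 6 genes, only GATA4 and SOX7 were in the table of gastruloid nuclei, and the other 4 were not analysed here. The table held 3646 nuclei of 1 preparation, so there was no replicate, and 3422 passed the filters with a median of 16302 UMIs. GATA4 had a UMI in 125 of 3197 nuclei thinned to 5000 UMIs each (3.91%, exact 95% interval 3.27 to 4.64%), and in 338 of 3422 unthinned (9.88%). SOX7 had one in 16 thinned nuclei (0.50%, 0.286 to 0.812%) and in 54 unthinned (1.58%). Pooled over nuclei GATA4 was at 9.02 CPM, with 10623 of 17493 genes above it, and SOX7 at 1.09 CPM. Intervals cover counting error only.

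GATA4 was uneven among clusters of nuclei, which were made without the 6 genes. Its share was 53 of 545 thinned nuclei (9.73%, exact interval 7.37 to 12.5%) in a cluster led by EDNRA, NFIB and ZIC1. PAX3 and MEOX2 of the somite list were raised there, as in other clusters, and it stays unnamed. In a notochord and node-like cluster, with TBXT, NOTO, CHRD, SHH, FOXA2, NOG and FOXJ1 raised, it was 32 of 472 (6.78%, 4.68 to 9.44%). A finer clustering, given at the end, changed which cluster was highest. A somite-like cluster with RIPPLY1, MEOX1 and FOXC2 had 3.08%, and a presomitic mesoderm-like cluster with TBX6 and MSGN1 had 2.14%. In a cluster with SOX2, NKX1-2, CDX2 and FGF17 raised, the GATA4 share was 1 of 391 (0.256%, 0.00648 to 1.42%). Its median was 16863 UMIs, against 14415 in the first cluster and 20967 in the notochord and node-like one. The level of free RNA was not estimated. A cluster of 33 nuclei had FOXA1, FOXA2, EPCAM and CLDN4 of the gut endoderm list raised. The first 3 of these were also raised in the notochord and node-like cluster. APOA1 and APOB of the extraembryonic endoderm list, TEK and RUNX1 of the endothelial and blood list, and CHRD were raised in the 33 nuclei too. This cluster had no GATA4 UMI before or after thinning. For 33 nuclei this allows a share of up to 10.6% with a UMI at 5000 UMIs each, and says nothing of nuclei that express the gene below that depth. SOX7 was in 0 to 4 thinned nuclei of every cluster, with 4 of 391 (1.02%) in the cluster with SOX2 and NKX1-2. These are too few to compare clusters after thinning. Unthinned, SOX7 was in 15 of 394 nuclei of the somite-like cluster (2.91 CPM), 15 of 496 of the notochord and node-like one (1.56 CPM), 2 of 562 of the cluster led by EDNRA (0.224 CPM) and 6 of 418 of the cluster with SOX2 and NKX1-2 (0.944 CPM).

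Shares of other genes were compared between nuclei with and without a GATA4 UMI, as a description over nuclei of 1 preparation. FLI1, an endothelial and blood factor, was in 16.0% of the 125 (10.1 to 23.6%) and in 4.95% of the 3072 without (4.21 to 5.78%). The other genes of its list that were compared differed less. ERG was in 4.8% and 3.03%, LMO2 in 5.6% and 4.92% and RUNX1 in 3.2% and 2.08%. KDR was in 0.8% and 0.619%, ETV2 in 1.6% and 1.01% and TEK in 0% and 0.684%. CHRD, the node-derived BMP antagonist, was in 26.4% (18.9 to 35.0%) and 16.2% (14.96 to 17.6%), and NID2, a basement membrane protein, in 17.6% (11.4 to 25.4%) and 9.38% (8.37 to 10.5%). From the same list as NID2, SPARC was in 72.8% and 64.9%, and DAB2 in 4.8% and 7.65%. SOX2 was in 8.0% and 15.3%, and FGF17 in 5.6% and 19.2%. Before thinning, nuclei with GATA4 had a median of 18866 UMIs and those without 16061. Of nuclei with GATA4, 9 of 338 (2.66%) were called doublets, against 70 of all 3422 (2.05%), and 7 nuclei held both GATA4 and SOX7.

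**Figure D4:**
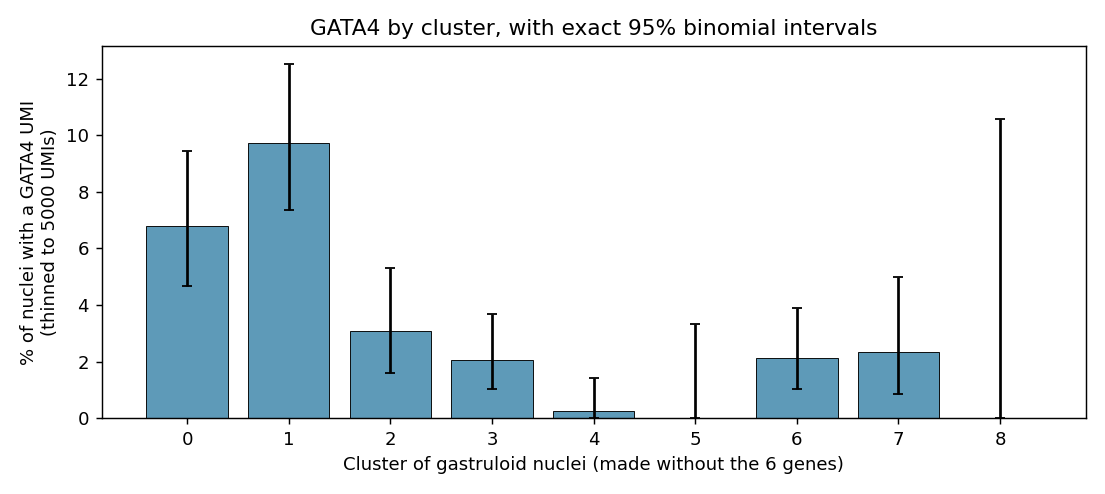
Percent of gastruloid nuclei with a GATA4 UMI in each cluster after thinning to 5000 UMIs; bars start at 0 and error bars are exact 95% binomial intervals. Cluster 1 (EDNRA, NFIB, ZIC1) reaches 9.73% and cluster 0 (notochord and node-like) 6.78%, while cluster 4 (SOX2, NKX1-2) is at 0.256%.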

How the data were processed

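RNA was measured in 12 bulk libraries and in gastruloid nuclei of 1 preparation, with one list of accessible peaks. Per the labels and the study's methods, the authors aligned bulk reads to hg19 with HISAT2 and deposited raw read counts per gene and per transposable element, made with featureCounts from uniquely mapped reads. The gastruloid data came from Cell Ranger (cellranger-arc 2.0.0, hg38), as deposited UMI counts per gene and nucleus and peaks called on the pooled preparation. Groups were taken from titles. Gene reads per library ranged from 11583063 to 37152434.

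Counts were tested in R 4.3.3 by the quasi-likelihood test of edgeR 4.0.16 after TMM scaling, in 1 fit per comparison, over genes with at least 3 reads in at least 1 library, with Benjamini-Hochberg adjustment over all of them. A call needed an adjusted p under 0.05 and a fold above 2. Standard errors were taken from the fold change and the F statistic, and intervals are 95%. CPM were scaled over the 12 libraries and divided by merged exon length for levels per kb. IDs without an entry in the annotation (8012 of 63677) held 0.353% to 0.526% of the reads of each library. The alternatives were DESeq2 1.42.0, limma 3.58.1 (voom), other scalings and filters, a fit of all 12 libraries, a replicate block and leaving out each library.

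Nuclei were required to hold 1000 UMIs and 200 genes, with mitochondrial UMIs up to 25%, and were clustered with scanpy 1.11.5 (2000 variable genes, 30 components, resolution 0.5) without the 6 genes, and thinned to 5000 UMIs for shares. Doublets were called but kept. Scripts were tested on simulated data. The 6 genes and all gene lists were chosen with earlier results of these data known. Text named the 6 genes and their antisense genes, up to 8 called genes per regulator list and comparison by adjusted p, at most 2 per marker list by level, and the 3 genes most correlated with each of the 6. Markers used to check labels and the genes CDH5, TIE1, KDR, RUNX1, TFAP2C, ISL1, CDX2, AFP, PDGFRA, HAND1 and TBX20 were named after their values were seen. So were the genes compared between nuclei with and without GATA4.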

Additional observations from a re-analysis of the deposited data

How the results depend on the processing

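Over the 6 genes and their antisense genes, 646 refitted values kept their direction and their side of the threshold, 21 lost a call, 10 gained one and 16 changed sign, all of these last in fits without 1 library and for differences that had not been called. None of the 6 genes was called with the sgRNA in endoderm or foregut, or for the difference of the effects, in any setting but the crossed pairing given below. The GATA4, GATA6, SOX17 and GATA3 calls in endoderm against hESC, and the GATA6 and SOX17 calls in foregut against endoderm, held in every alternative.

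Counts of genes called with the sgRNA moved with the setting. In endoderm 7 genes became 47 with DESeq2, 186 with no filter on low counts, and 1 each with voom, a filter by expression and all 12 libraries in 1 fit. In foregut 33 became 11 with voom, 1 with the filter by expression and 209 with all 12 libraries. For the difference between stages 44 became 236 with DESeq2, 139 with no filter, 89 with all 12 libraries and 0 with the filter by expression. The causes were not tested.

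The replicate numbers did not pair the libraries. Deviations of same-numbered endoderm libraries correlated at −0.073, −0.065 and −0.021 between sgRNA and control, those of foregut at −0.295, and those of foregut and endoderm at 0.176 to 0.237 over only 2 pairs each. With a replicate block 19 genes were called in foregut and 0 for the difference between stages, the SOX7 calls were lost (adjusted p = 0.069 against hESC, 0.107 and 0.203 in foregut against endoderm) and GATA3 was called in foregut CRISPRi against endoderm CRISPRi (0.0271). Crossed numbers in foregut, a pairing chosen after seeing the data, gave 74 genes and 1 of the 6, lower. The block changed no other call of the 6 genes.

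Leaving out each library in turn, genes called ranged from 4006 to 5544 in endoderm against hESC (4 to 6 of the 6 genes), 1 to 9 with the sgRNA in endoderm (0 to 0), 16 to 527 in foregut (0 to 0; 527 without the first and 74 without the second CRISPRi library), 4976 to 8095 in foregut against endoderm control (3 to 4), 3470 to 8259 in the CRISPRi libraries (2 to 5) and 0 to 805 for the difference (0 to 0). Log2 fold changes that changed sign ranged, with the sgRNA in endoderm, from −0.05 to 0.50 for GATA3, −0.08 to 0.17 for GATA4, −0.13 to 0.40 for SOX17 and 0.00 to 0.95 for SOX7. In foregut they ranged from −1.51 to 0.05 for GATA3, −0.01 to 0.18 for GATA6, −0.38 to 1.25 for SOX7 and −0.82 to 0.47 for GATA6-AS1, and for the difference from −0.20 to 0.07 for GATA6 and −0.65 to 0.95 for SOX7. GATA3 in foregut CRISPRi against endoderm CRISPRi was also called by DESeq2, with either other filter and with all 12 libraries (adjusted p 0.0194 to 0.0445). The median log2 fold change of all genes lay more than 0.1 from 0 only in that comparison, at −0.14 by TMM, −0.12 by DESeq2's factors and −0.20 unscaled.

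In nuclei, thinning set the shares: unthinned, 9.88% held GATA4 and 1.58% SOX7. The highest share of GATA4 in a cluster was 14.5% at resolution 1.0 (11 of 76, exact interval 7.45 to 24.4%). That cluster of 80 nuclei was led by PRIMA1, SCGB1A1 and CST1, and no marker list had several genes raised in it. At this resolution the notochord and node-like clusters had 5.51% (19 of 345) and 3.08% (2 of 65). The one led by EDNRA had 10.6% (39 of 367). A minimum of 2000 UMIs changed nothing, since thinning needs 5000. With 2 or 3 libraries per group, differences such as that of GATA4 in foregut cannot be told from the spread after adjustment over all genes.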
